A study of Mus musculus with 3 samples.

Results

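The H2 region is the major histocompatibility complex of the mouse and lies on chromosome 17. Its members were taken by position alone: every SNP between B6 and CAST that the exome count files list on chromosome 17 between 33.6 and 37.3 Mb (GRCm38), with SNPs at the same position counted once. There are 2479 such SNPs, in 252 genes, of 452304 SNPs in 30212 genes in the whole series, and 0 positions were listed more than once. The cells came from female F1 mice whose mother was B6 and whose father was CAST. The maternal allele at each SNP is thus the reference (B6) base and the paternal allele that of CAST. AI, the allelic imbalance, is the maternal count divided by the sum of maternal and paternal counts, and would be 0.5 in DNA that is read equally from both chromosomes.

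DNA was sequenced from 3 libraries, 1 per recipient animal. E6.2 is a polyclonal animal that received 50 hematopoietic stem cells (HSCs), and its library holds 58000 sorted B220+IgM+ B cells. E6.43 and E15.10 were each injected with a single HSC, which makes them monoclonal, and these libraries hold 250000 and 177000 sorted CD4+CD8- T cells. The donor was animal 6 for E6.2 and E6.43 and animal 15 for E15.10. Donors and recipients were F1 mice of the same pair of strains, CAST carrying Ly5/Ly5 and B6 carrying Ly5.2/Ly5.2 in the donors and Ly5.2/Ly5.1 in the recipients. Recipients had been sublethally irradiated, and cells that they kept would carry the same B6 and CAST forms of the H2 region. Donors were a few weeks old and recipients up to a few months old at injection. The labels place the B cells in the spleen and the study's methods in the bone marrow. DNA carries no expression markers, so the sorted cell types were not checked here. With 1 library per animal, clonality, cell type and animal cannot be told apart, and no value has a replicate error. Where 3 values follow each other without further words, they are those of E6.2, E6.43 and E15.10 in this order.

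Class I genes encode heavy chains that pair with beta-2 microglobulin and present peptides of the cell's own proteins to CD8+ T cells. The classical class I genes of B6 are H2-K1 and H2-D1, and the Q, T and M genes are their nonclassical relatives, which arose by repeated duplication. Class II genes encode alpha and beta chains that present peptides of ingested proteins to CD4+ T cells. Class III genes lie between them and include complement factors and cytokines of the tumor necrosis factor family. In classical class I genes, exons 2 and 3 encode the domains that form the peptide groove and exon 4 the immunoglobulin-like domain beneath it. In class II genes, exon 2 encodes the groove part of each chain. These groove exons are among the most variable coding sequences known in mammals.

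The exons on which the results below turn are printed first, from the GRCm38 reference (the B6 sequence), 5′ to 3′ on the strand of the gene. Capitals mark the bases at which the files list a SNP. The CAST bases are not part of the files used here. Exons 3 and 4 of H2-K1 and exons 2 and 3 of H2-D1 are shown because AI at most of their SNPs lies far from 0.5 in opposite directions within 1 gene.

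H2-K1 exon 3, chr17:33999271-33999546, minus strand: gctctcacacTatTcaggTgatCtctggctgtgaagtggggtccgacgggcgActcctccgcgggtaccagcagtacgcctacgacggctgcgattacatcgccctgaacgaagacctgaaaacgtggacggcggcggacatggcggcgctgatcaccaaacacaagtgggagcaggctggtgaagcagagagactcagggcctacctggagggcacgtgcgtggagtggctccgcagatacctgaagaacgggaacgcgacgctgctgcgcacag
H2-K1 exon 4, chr17:33997285-33997560, minus strand: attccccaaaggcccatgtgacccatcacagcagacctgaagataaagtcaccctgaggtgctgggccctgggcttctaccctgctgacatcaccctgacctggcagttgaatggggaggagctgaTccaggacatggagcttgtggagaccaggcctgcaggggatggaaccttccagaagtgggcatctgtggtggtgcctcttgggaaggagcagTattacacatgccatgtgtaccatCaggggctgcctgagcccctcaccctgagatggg
H2-D1 exon 2, chr17:35263379-35263648, plus strand: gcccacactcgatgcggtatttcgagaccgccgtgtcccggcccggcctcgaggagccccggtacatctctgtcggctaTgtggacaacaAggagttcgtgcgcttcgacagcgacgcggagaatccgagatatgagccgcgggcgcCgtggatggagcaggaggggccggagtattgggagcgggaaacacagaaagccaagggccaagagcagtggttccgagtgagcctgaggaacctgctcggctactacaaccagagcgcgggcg
H2-D1 exon 3, chr17:35263839-35264114, plus strand: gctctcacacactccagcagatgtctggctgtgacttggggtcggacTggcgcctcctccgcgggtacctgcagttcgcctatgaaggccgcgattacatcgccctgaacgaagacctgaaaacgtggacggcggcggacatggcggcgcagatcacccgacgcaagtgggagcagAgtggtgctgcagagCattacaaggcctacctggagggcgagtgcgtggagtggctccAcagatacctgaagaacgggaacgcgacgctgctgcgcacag

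Exon 3 of H2-Q1 and exon 1 of H2-Q5 are shown because almost no paternal counts were found there. Exon 2 of H2-Ab1 is shown for the density of its SNPs, and exon 4 of Rps18, a ribosomal protein gene, for an excess of paternal counts at its only SNP.

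H2-Q1 exon 3, chr17:35321275-35321550, plus strand: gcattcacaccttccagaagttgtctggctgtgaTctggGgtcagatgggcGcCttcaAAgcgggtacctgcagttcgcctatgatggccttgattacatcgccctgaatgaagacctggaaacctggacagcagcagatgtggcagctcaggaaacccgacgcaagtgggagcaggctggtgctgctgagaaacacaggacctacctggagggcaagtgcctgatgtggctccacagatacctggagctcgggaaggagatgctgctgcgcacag
H2-Q5 exon 1, chr17:35394126-35394189, plus strand: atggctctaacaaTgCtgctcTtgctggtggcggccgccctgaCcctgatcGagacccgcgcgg
H2-Ab1 exon 2, chr17:34264761-34265033, plus strand: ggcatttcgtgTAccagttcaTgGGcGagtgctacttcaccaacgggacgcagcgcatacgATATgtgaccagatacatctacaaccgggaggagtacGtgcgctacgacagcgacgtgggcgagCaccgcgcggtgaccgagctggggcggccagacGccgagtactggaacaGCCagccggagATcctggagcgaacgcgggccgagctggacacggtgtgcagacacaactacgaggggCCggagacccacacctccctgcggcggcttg
Rps18 exon 4, chr17:33952221-33952312, minus strand: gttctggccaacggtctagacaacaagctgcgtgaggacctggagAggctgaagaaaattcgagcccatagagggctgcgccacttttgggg

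Both alleles were found in every part of the region in every library, though not at every gene or SNP. AI over all SNPs of the region was 0.535 in E6.2 (95% Wilson interval 0.532 to 0.537), 0.532 in E6.43 (0.529 to 0.535) and 0.535 in E15.10 (0.532 to 0.538), from 164832, 114223 and 129382 counts. The median gene of the autosomes had an AI of 0.537, 0.538 and 0.537. Neighbouring SNPs share reads, so these intervals cover counting error only and are too narrow. Of the 202, 202 and 201 genes of the region with at least 10 counts, 2, 5 and 5 had an AI under 0.25 or over 0.75, the range in which the study sets genes aside as possible loss of heterozygosity. Over all autosomal genes with that many counts, 5.32%, 5.56% and 5.24% lay in this range. Of the 199 region genes with at least 10 counts in all libraries, 0 lay in this range in all of them, against 2.22% of autosomal genes. In 106 of the 199 genes (53.3%) AI stayed between 0.4 and 0.6 in all libraries, against 56.6% of 21802 autosomal genes. AI was over 0.6 in all libraries in 13 genes and under 0.4 in 6, which is 6.53% and 3.02% of the genes, against 5.55% and 1.76% over the autosomes. The plot of gene AI along the region shows these genes among their neighbours.

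**Figure D1:**
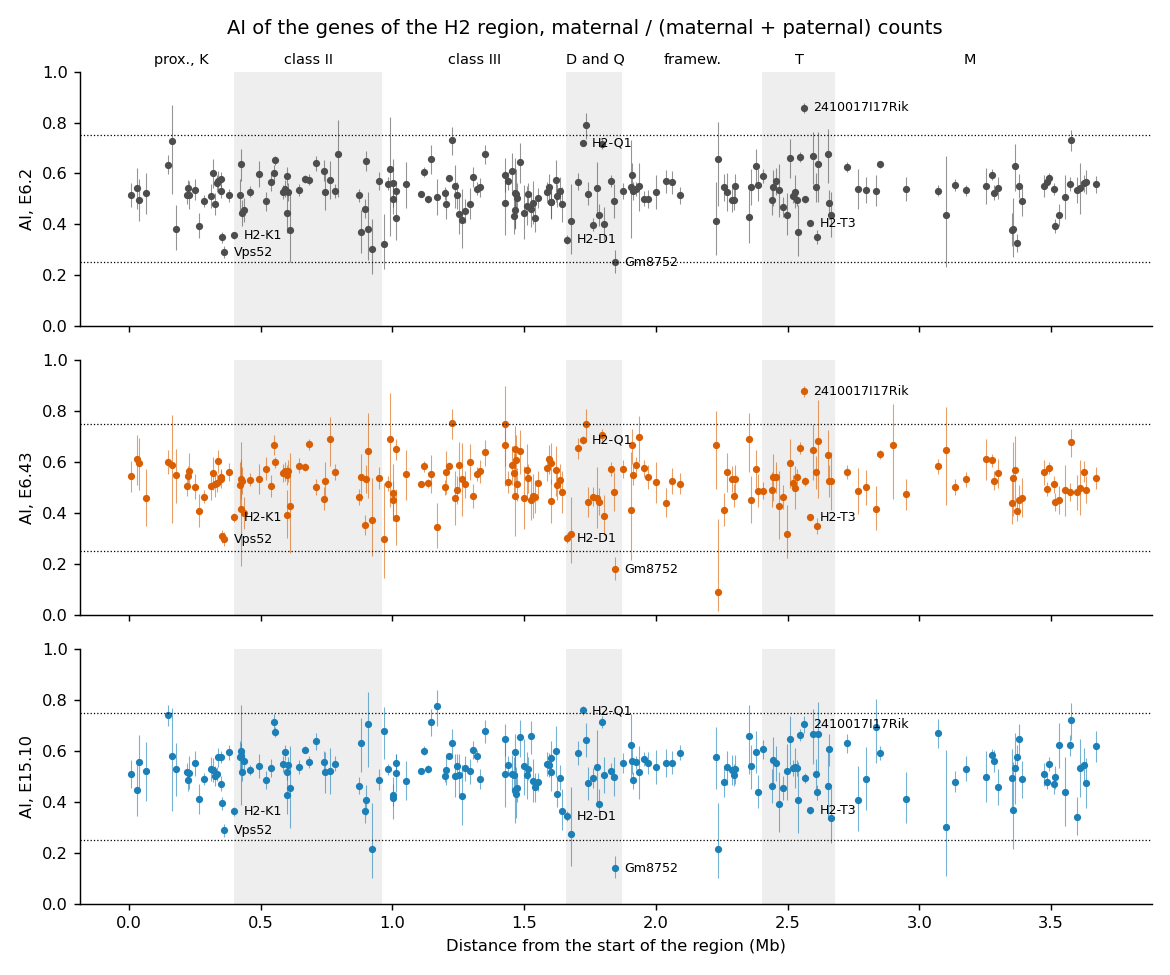
AI of each gene of the H2 region with at least 10 counts (points, with the 95% Wilson interval as a line), by distance in Mb from the start of the region, 1 panel per library. Shading marks the parts of the region and dotted lines AI of 0.25 and 0.75. Most genes lie near the middle in every library, H2-Q1 and 2410017I17Rik lie high, and H2-K1, H2-D1, Vps52 and Gm8752 lie low.

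The region held many SNPs but not many per kb of exon, and within it the density was highest among the class I and class II genes. Among 656 autosomal windows of 3.7 Mb the region ranked 4 by its number of SNPs (median window 561.5). Per kb of exon of its genes it had 4.43 SNPs and ranked 352 of the 616 windows with at least 20 kb of such exon, whose median was 4.62. D and Q, the part from H2-D1 through the Q genes, held 7.64 SNPs per kb of exon. The T part held 7.20, class II 5.22, M 4.45, the proximal part with the K genes 4.25, the framework between the Q and T genes 3.43 and class III 3.16. Over the 28 SNPs of H2-K1 and the 17 of H2-D1 the density was 9.53 and 6.59 per kb of exon. H2-T3, which encodes the thymus leukemia antigen, held the most SNPs of the region, 79, or 29.0 per kb. H2-Ab1, the beta chain of the class II molecule I-A, held 67 (26.1 per kb), H2-Aa, its alpha chain, 60 (15.8 per kb), and H2-Q1 58 (20.3 per kb). Gm9573, a gene of the framework, held 72 SNPs, of which 61 had 0 counts in all libraries.

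Coding SNPs of the class II chains lay mostly in the groove exons. In H2-Ab1, exon 2 held 20 coding SNPs, or 73.3 per kb of coding sequence, against 10 (35.5 per kb) in exon 3. In H2-Aa the values were 14 (56.2 per kb) and 7 (24.8 per kb). In H2-Eb1, the beta chain of I-E, all 9 SNPs lay in exon 2 (33.3 per kb). Among the class I genes, exons 2 and 3 held most coding SNPs in H2-K1 and H2-D1 but not in H2-Q1 and H2-T3. In H2-K1, exons 1 to 5 held 3, 7, 5, 3 and 3 coding SNPs (46.9, 25.9, 18.1, 10.9 and 25 per kb). In H2-D1, exons 2 to 5 held 3, 4, 1 and 1 (11.1, 14.5, 3.62 and 8.55 per kb). In H2-Q1, exons 2 and 3 had 7.41 and 21.7 coding SNPs per kb, below its short exons 1, 6 and 7 with 93.8, 90.9 and 62.5. In H2-T3, exons 2, 3 and 4 held 4, 6 and 11 (14.8, 21.7 and 39.9 per kb).

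AI over the parts ran from 0.46 to 0.569 in E6.2, from 0.462 to 0.566 in E6.43 and from 0.477 to 0.568 in E15.10. It was lowest in the proximal part with the K genes and highest in D and Q in each library. In class II it was 0.561, 0.557 and 0.564, in class III 0.54, 0.543 and 0.545, in T 0.509, 0.502 and 0.492 and in M 0.558, 0.544 and 0.547. AI of single SNPs set D and Q apart from the rest of the region. Among SNPs with at least 20 counts, 10.3%, 12.1% and 9.85% of the region's SNPs had an AI under 0.25 or over 0.75, against 6.36%, 6.84% and 5.77% over the autosomes. The autosomal values of E6.2 and E6.43 again include the chromosome 7 stretch. In D and Q the share was 43.9%, 46.4% and 46.9%. In the T part it was 20.1%, 16.8% and 13.6%. In class III it was 3.76%, 3.58% and 1.74%, and in the framework 0.980%, 1.02% and 2.08%. These shares are descriptions, since SNPs of 1 exon share reads and are not independent.

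**Figure D2:**
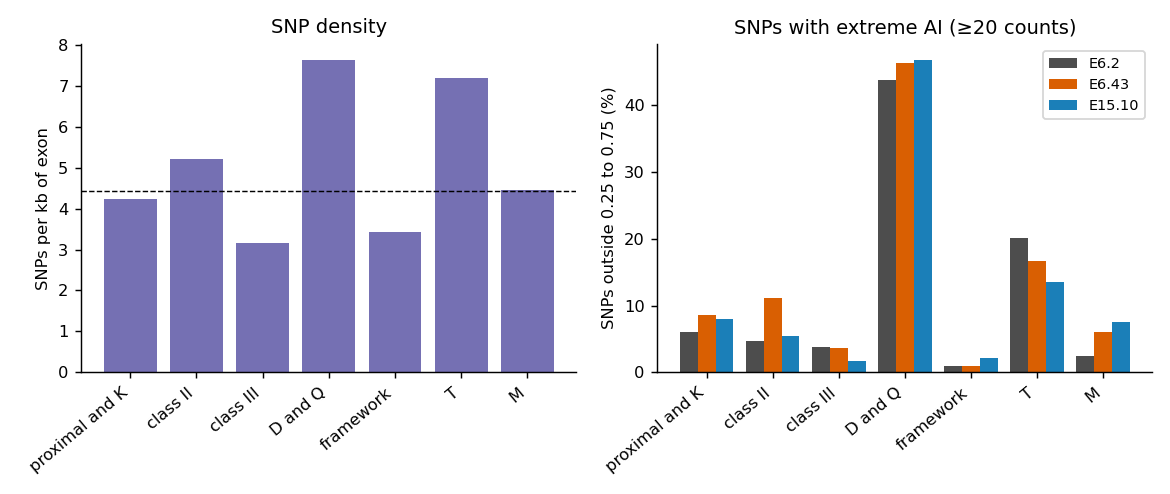
SNPs per kb of exon (left, dashed line for the whole region) and the percentage of SNPs with at least 20 counts whose AI lay under 0.25 or over 0.75 (right, 1 bar per library), for the 7 parts of the H2 region in chromosomal order. D and Q has the highest bars in both panels, and the T part comes next.

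Of the 1264 region SNPs with at least 20 counts in every library, 189 lay outside 0.25 to 0.75 in at least 1 library, 74 of them in 1 library, 48 in 2 and 67 in all on the same side. Of these 67, 59 had an AI over 0.75 in all and 8 under 0.25 in all, together 5.30% of the 1264. Over the autosomes 1.51% and 0.371% did so, together 1.88%. No SNP of the region was under 0.25 in 1 library and over 0.75 in another, which was rare over the autosomes too (42 of 138659). D and Q held 35 of the 67 SNPs among its 119 SNPs (29.4%), and the T part held 15 of 173 (8.67%). Without D and Q, T, H2-K1 and H2-K2, 13 of 935 SNPs remained (1.39%). Across the SNPs of D and Q, AI in E6.2 had a Pearson r of 0.957 with E6.43 and 0.929 with E15.10. In class III, where AI varied little, these values were 0.459 and 0.522. The genes with most of the 67 SNPs were H2-Q1 (14), the T pseudogene Gm10499 (10), H2-Q5 (8), H2-D1 (7) and H2-DMb1 (5).

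**Figure D3:**
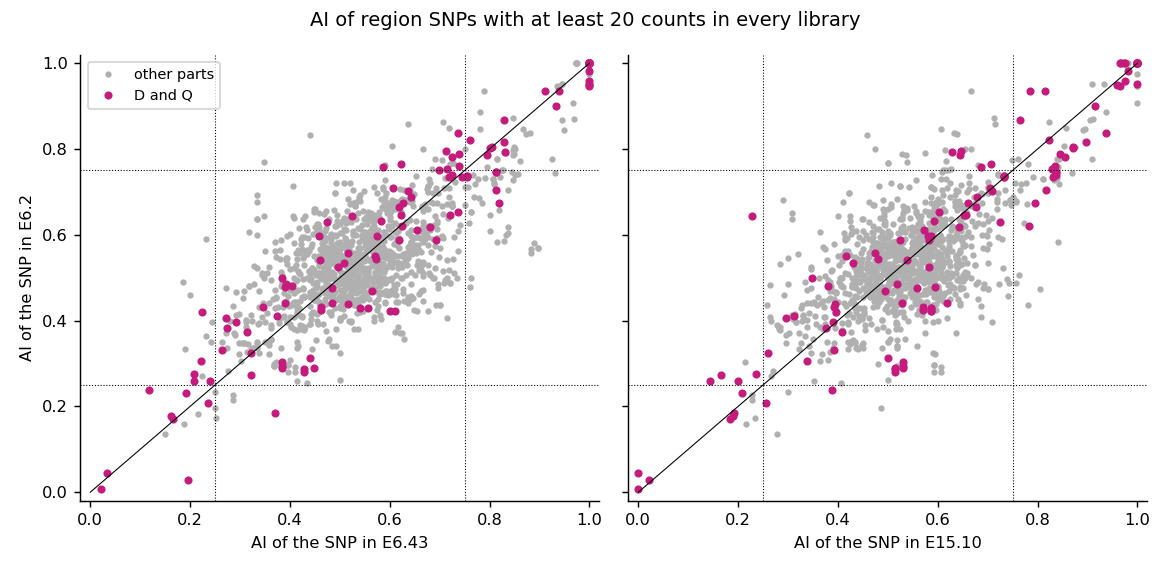
AI of the 1264 region SNPs with at least 20 counts in every library, E6.2 on the vertical axis against E6.43 (left) and E15.10 (right). SNPs of D and Q are in magenta, the line marks equal AI, and dotted lines mark 0.25 and 0.75. The D and Q SNPs spread along the line from near 0 to 1, while most other SNPs lie in the middle.

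Among the classical class I genes, H2-K1 had an AI of 0.357, 0.385 and 0.363, from 4380, 2933 and 3041 counts. Its exons differed strongly. In exon 4, AI was 0.208, 0.262 and 0.215, and at base 127 of the exon (33997434) 113 maternal and 505 paternal counts were found in E6.2, 80 and 292 in E6.43, and 85 and 359 in E15.10. In exon 3 AI was 0.802, 0.831 and 0.863, and at base 23 (33999524) the maternal and paternal counts were 39 and 1, 31 and 0, and 40 and 0. At base 53 of this exon AI was nearer the middle, at 0.688, 0.590 and 0.625. Exon 5 had an AI of 0.319, 0.304 and 0.372, and exons 4 and 5 held most of the counts of the gene. In exon 2 AI was 0.615, 0.574 and 0.45, and in exon 1 0.444, 0.446 and 0.497. The closest other copy of exon 4 in the region was that of H2-D1, at 96.0% identity.

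H2-D1 had an AI of 0.339, 0.302 and 0.345, from 2763, 1736 and 2033 counts. In exon 2 AI was 0.209, 0.178 and 0.226, with 48 maternal and 232 paternal counts at base 80 in E6.2. In exon 3, the next exon, AI was 0.925, 0.918 and 0.825, and at base 48 the maternal and paternal counts were 56 and 1, 41 and 0, and 50 and 1. In exon 4 AI was again low, at 0.208, 0.235 and 0.255. In both genes exon 3 lay above exon 4 in each of the 3 libraries.

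Among the Q genes, H2-Q1 had an AI of 0.718, 0.687 and 0.760. All 6 SNPs of its exon 3, at bases 35 to 60, had 0 paternal counts in every library, beside 33 to 49 maternal counts each. These 6 close a run of 11 neighbouring SNPs, 417 bp long, that starts in exon 2. The run had 524 maternal and 5 paternal counts in E6.2, 406 and 0 in E6.43, and 436 and 2 in E15.10. Exon 4 of the same gene had an AI of 0.514, 0.593 and 0.625, and its closest copy in the region was 97.5% identical, against 86.2% for exon 3. H2-Q5, annotated as a polymorphic pseudogene, had an AI of 0.715, 0.707 and 0.714. Its exon 1 had an AI of 0.992, 1 and 0.971, and its exon 5 had an AI of 0.390, 0.282 and 0.383. For both exons the closest copy, in H2-Q7, was 100% identical. H2-Q2, H2-Q7 and H2-Q10 stayed between 0.443 and 0.574 in all libraries. H2-Q3 had 0.398, 0.465 and 0.494, H2-Q4 0.437, 0.445 and 0.393, and H2-Q6 0.571, 0.575 and 0.522.

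**Figure D4:**
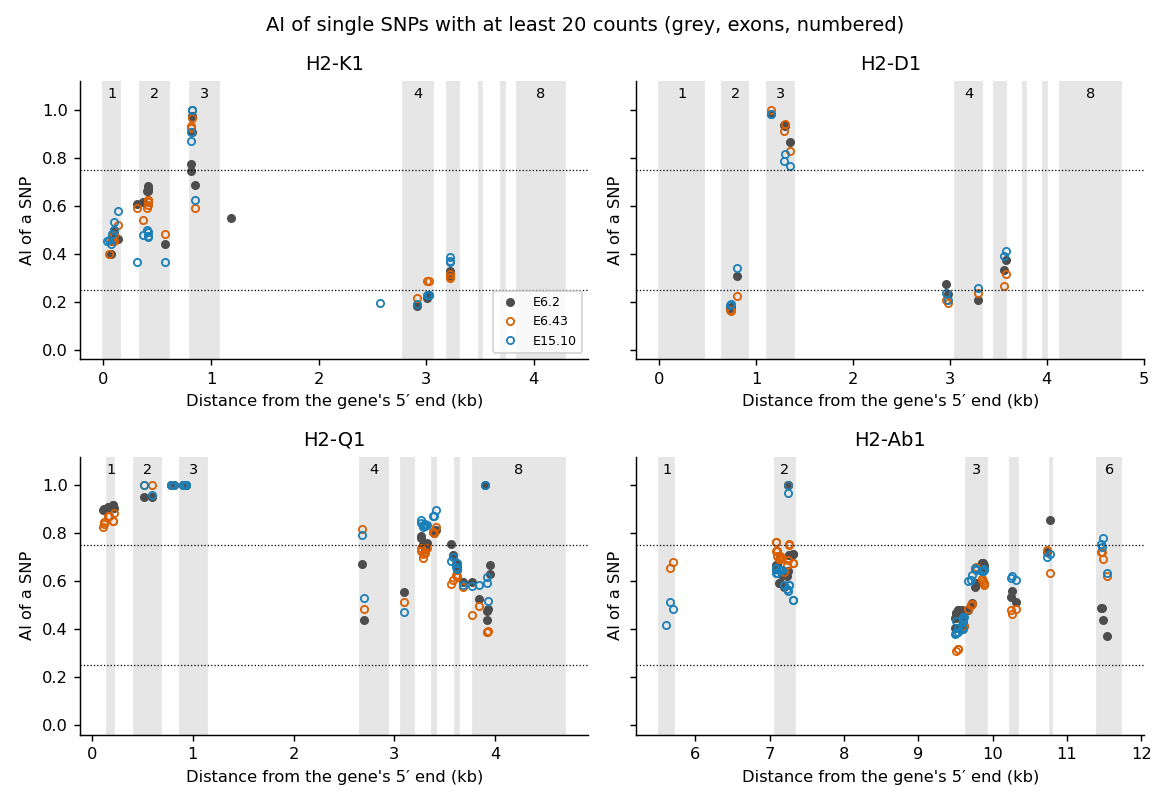
AI of single SNPs with at least 20 counts along H2-K1, H2-D1, H2-Q1 and H2-Ab1, by distance in kb from the 5′ end of the gene, coloured by library. Grey bands are exons and the numbers above name some of them. In H2-K1 and H2-D1 most points of exon 3 lie high and those of exon 4 low in each library, and in H2-Q1 the points of exons 2 and 3 lie near 1.

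Among the T genes, H2-T3 leaned to the paternal allele over its length, with an AI of 0.404, 0.384 and 0.368 from 7059, 4947 and 4819 counts, and between 0.297 and 0.496 in each of its exons. H2-T24 had 0.591, 0.488 and 0.608. H2-T22, H2-Bl and H2-T10 stayed between 0.45 and 0.535. H2-T-ps, with 1 SNP, had 0.662, 0.598 and 0.648. H2-T23, which encodes Qa-1, held 1 SNP with 4, 0 and 0 counts, so no AI was read from it. Gm10499, a pseudogene, had 0.666, 0.658 and 0.665, and 10 neighbouring SNPs of its exon 1 had 307 maternal and 4 paternal counts in E6.2, 306 and 5 in E6.43, and 380 and 8 in E15.10. Gm8909, with 33 SNPs, had 0.498, 0.525 and 0.494. Among the 8 M genes, AI ran from 0.327 to 0.624 in E6.2, from 0.410 to 0.585 in E6.43 and from 0.407 to 0.671 in E15.10. H2-M3, which presents formylated peptides, had 0.557, 0.537 and 0.621, and H2-M10.5, with the most SNPs of the M part (24), had 0.534, 0.534 and 0.532. Gabbr1, a subunit of the GABA-B receptor, had 0.551, 0.560 and 0.510, and the pseudogene Gm4271 0.554, 0.503 and 0.480. In the framework, Cchcr1 had 0.539, 0.589 and 0.557, and Cdsn, which encodes corneodesmosin of the skin, 0.50, 0.576 and 0.570.

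The 10 class II genes had a median AI of 0.588, 0.558 and 0.558 and none was under 0.4 in any library. H2-Ab1 had 0.577, 0.582 and 0.606, and its exon 2 0.669, 0.728 and 0.638. Exon 2 of H2-Aa had 0.643, 0.844 and 0.54. Of the 20 SNPs in exon 2 of H2-Ab1, all but those at bases 176 and 177 had counts of both alleles in every library. At each of these bases there were 38 maternal and 0 paternal counts in E6.2, while base 175, directly before them, had 38 and 21. At base 176 the maternal and paternal counts were 29 and 0 in E6.43 and 63 and 0 in E15.10, and at base 177 they were 30 and 0 in E6.43 and 62 and 2 in E15.10. H2-DMb1 and H2-DMb2, the beta chains of the molecule that loads peptides on class II, had 0.652, 0.60 and 0.675, and 0.602, 0.670 and 0.716. Exon 1 of H2-DMb1 had 0.786, 0.774 and 0.858, and its closest copy was in H2-DMb2 (89.8%). H2-Oa and H2-Ob, the chains that modulate this loading, had 0.599, 0.534 and 0.541, and 0.534, 0.586 and 0.539. H2-DMa, the alpha chain, had 0.566, 0.508 and 0.534. H2-Ea-ps had 0.527, 0.527 and 0.517.

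The 5 antigen processing genes, Tap1 and Tap2 (peptide transport), Tapbp (tapasin) and Psmb8 and Psmb9 (immunoproteasome), all had an AI between 0.4 and 0.6 in each library, from 0.480 to 0.595. Over all autosomal genes 56.6% did so. Of the 13 class III genes with a SNP among those looked for, 11 stayed in this range in all libraries. Tnxb, an extracellular matrix gene with 52 SNPs, had 0.521, 0.515 and 0.522 from 7122, 5339 and 7578 counts. Notch4, a Notch receptor, had 0.560, 0.516 and 0.529. The complement genes C4b and C4a had 0.497, 0.517 and 0.530, and 0.580, 0.585 and 0.579. The cytokine genes Tnf, Lta and Ltb lay between 0.446 and 0.612 with 121 to 451 counts. Ddx39b, an RNA helicase gene, had 0.478, 0.483 and 0.366. The heat shock genes Hspa1a, Hspa1b and Hspa1l and the gene Aif1 had no SNP in the files used here.

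Other genes that leaned the same way in all libraries were Vps52, a vesicle tethering gene, with 0.290, 0.298 and 0.289, and Rps18 with 0.349, 0.308 and 0.395. At base 46 of exon 4 of Rps18 the maternal and paternal counts were 89 and 562, 75 and 428, and 126 and 328, whereas the SNP of exon 3 had an AI of 0.456, 0.429 and 0.359. Kifc1, a kinesin gene of the same part, had 0.491, 0.465 and 0.489. Rab11b, a GTPase of recycling endosomes, had 0.634, 0.602 and 0.742, Stk19 0.732, 0.754 and 0.630, the noncoding gene 2410017I17Rik 0.858, 0.880 and 0.705, and the pseudogene Gm8752 0.251, 0.179 and 0.139. In the imbalance range were further Gm8741 (E6.2 and E6.43), Tubb5 (E6.43 with 11 counts and E15.10 with 28), Gm15329 (E15.10, 28 counts) and Skiv2l-ps1 (E15.10). Of the genes in this range, Stk19 in E6.43, H2-Q1 in E15.10 and Tubb5 are protein-coding. Besides these and the class I and II genes, AI was over 0.6 in all libraries in 1110038B12Rik, Ly6g6f, Gm4246, Gm20392 and Gm7031, where it ran from 0.636 to 0.731.

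SNPs far from 0.5 in all libraries were more frequent where the sequence around them recurs elsewhere in the genome than where it does not, but the share did not rise steadily with the amount of such sequence. For each SNP, the share of 36-base words within 75 bp that occur again in GRCm38 was counted. Of the SNPs with at least 20 counts in all libraries and no such word, 6 of 683 (0.878%) lay outside 0.25 to 0.75 on the same side in all libraries. With up to 25% of such words it was 31 of 270 (11.5%), from there up to 75% it was 25 of 273 (9.16%), and above this 5 of 38 (13.2%). In D and Q, 77.3% of SNPs had at least 1 such word nearby, in T 63.2%, in M 39.2%, in class III and in the proximal part with the K genes 35.8%, in the framework 34.2% and in class II 16.9%. The parts did not follow this order throughout, since 2.73% of SNPs in class II lay outside the range on the same side in all libraries, against 0.656% in class III, 0 of 91 SNPs in the framework, 1.75% in M and 3.36% in the proximal part with the K genes. The share also differed with the number of other SNPs within 75 bp. It was 2.29% with 0 such SNPs, 4.75% with up to 2 and 10.3% above 2 and up to 5. Above 5 and up to 10 it was 7.55%, and above 10 it was 0 of 19. The median number was 4 in T, 2 in D and Q and in class II, and 1 in each other part. The 2 features were not separated. Of 401 exons with at least 50 counts in every library, AI was over 0.75 in all libraries in 14 and under 0.25 in 2. Of these, 10 were among the 123 exons with a copy of at least 90% identity elsewhere in the region, 5 among the 59 with a less similar copy and 1 among the 219 with none found. Whether such copies have a part in the AI values was not tested. H2-Q1 exon 3 and the exons 8 and 9 of Vps52 (AI 0.172, 0.252 and 0.234, and 0.283, 0.275 and 0.271) had few or no recurring words, with a median of 1.72% and 0%.

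At SNPs with 0 counts of an allele it was mostly the paternal one that was missing. Among SNPs with at least 20 counts, 45, 38 and 32 had 0 paternal counts (3.11%, 2.85% and 2.35%), against 0.554%, 0.518% and 0.403% over the autosomes. A SNP with 0 counts allows up to 3 counts of its total. H2-Q1 held 10, 11 and 11 of these SNPs. With 0 maternal counts there were 0 SNPs in E6.2 and 0 in E6.43, against 0.342% and 0.928% over the autosomes, and 3 in E15.10 (0.220%, against 0.095%).

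The study sequenced DNA to set aside genes with loss of heterozygosity, and the comparison between libraries asks whether AI of the region differed between animals. It compares these libraries and not the conditions. By Fisher's exact test with Benjamini-Hochberg adjustment over all autosomal genes with at least 10 counts in both libraries, 23 of 200 region genes (11.5%) differed between E6.43 and E6.2, against 13.8% of all genes. Between E15.10 and E6.2 it was 39 of 200 (19.5%) against 18.8%, and between E6.43 and E15.10 29 of 200 (14.5%) against 18.7%. The shares lay near those of all genes. When counts were shrunk for the spread between genes beyond counting error, 0, 0 and 1 region genes were called, against 0.0899%, 1.33% and 1.4% of all genes. Of the 200 region genes, 2, 11 and 6 had an unadjusted p under 0.05 by Fisher's exact test on shrunk counts, with no share over all genes taken. That spread was estimated within each library, so it includes AI that a gene shares across libraries. Gene AI in the region had a Pearson r of 0.580, 0.509 and 0.542 in these pairs. Shrinking can therefore be too strict, and few calls do not show that AI was equal.

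Among the genes that differed between E6.43 and E6.2, the differences were largest in Tubb5 (0.091 against 0.655, from 11 and 29 counts), Gm8801 (0.690 against 0.427), Mpig6b (0.651 against 0.46), H2-Eb2 (0.456 against 0.611) and H2-Eb1 (0.503 against 0.640). Gm8801 had 58 and 82 counts and Mpig6b 83 and 178. H2-Eb1 was lower in E6.43 at 9 of 9 SNPs, all in exon 2, where SNPs share reads and are not independent. Its adjusted p was 2.4e-07 by Fisher's exact test, 1 after shrinking and 0.27 with SNPs at least 300 bp apart. Between E15.10 and E6.2 the differences were largest in Tubb5, Gm20462 (0.680 against 0.324), Btnl6 (0.706 against 0.383), Skiv2l-ps1 (0.777 against 0.508) and Gm15332 (0.632 against 0.369). The counts of these genes were low, in order 28 and 29, 75 and 68, 34 and 47, 130 and 197, and 76 and 122. None of them passed in this pair after shrinking. Between E6.43 and E15.10 the differences were largest in Skiv2l-ps1 (0.345 against 0.777), Gm20462 (0.30 against 0.680), Lgals1-ps1 (0.417 against 0.694), Gpank1 (0.451 against 0.658) and 2410137M14Rik (0.450 against 0.646). Here the counts were 110 and 130, 20 and 75, 120 and 49, 144 and 202, and 269 and 229, and only Skiv2l-ps1 passed after shrinking. 2410017I17Rik was lower in E15.10 (0.705) than in E6.2 (0.858) and E6.43 (0.880). Its adjusted p by Fisher's exact test was 1.9e-14 and 5.7e-16, 0.012 in both with SNPs at least 300 bp apart, and 0.60 and 0.47 after shrinking. Rps18 was higher in E15.10 (0.395) than in E6.2 (0.349) and E6.43 (0.308). Fisher's exact test on all counts of this gene gave an adjusted p of 0.043 against E6.2 and 6.5e-05 against E6.43. On such spaced SNPs this test gave 1.2e-05 and 1.4e-05, but Rps18 did not pass after shrinking. Of its SNPs with at least 20 counts, E15.10 was higher at 4 and lower at 3 than E6.2. Compared with E6.43 it was higher at 4 and lower at 2. At the exon 4 SNP, AI was 0.278 in E15.10 against 0.137 and 0.149, whereas the exon 3 SNP was lowest in E15.10. A difference along the whole gene was thus not shown. H2-Aa was higher in E6.43 (0.671) than in E6.2 (0.575) and E15.10 (0.559), with adjusted p of 7.1e-07 and 2.3e-09 by Fisher's exact test and 1 in both after shrinking. With SNPs at least 300 bp apart the adjusted p of this test was 0.77 and 0.78. H2-M6-ps was higher in E15.10 (0.575) than in E6.2 (0.327), at 12 of 12 SNPs, of which neighbours share reads. Its adjusted p was 5.5e-13 by Fisher's exact test, 0.13 after shrinking and 0.079 with SNPs at least 300 bp apart.

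Depth differed between libraries and along the region. The totals were 19471576, 13036005 and 10863972 counts, and the region held 87.2, 90.1 and 122 of each 10000 autosomal counts. Class III held 19.2, 20.9 and 36.8 of each 10000, which is 1.92 times as much in E15.10 as in E6.2, and the M part held 16.8, 15.5 and 11.3, which is 0.674 times as much. The median GC content within 75 bp of a SNP was 56.3% in class III and 49.0% in M. The part of base composition in these depths was not tested. The median region SNP had 37, 25 and 28 counts, while the median autosomal SNP had 1 count in each library. Of the autosomal SNPs, 47.9%, 49.9% and 49.6% had 0 counts. Among SNPs with at least 20 counts the median was 89, 69 and 75 in the region and 93, 66 and 56 over the autosomes. In all libraries together 578 region SNPs (23.3%) had 0 counts, against 44.6% over the autosomes, and 28 of the 252 genes had 0 counts. In the framework 47.7% of SNPs had 0 counts and in class III 12.2%.

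**Figure D5:**
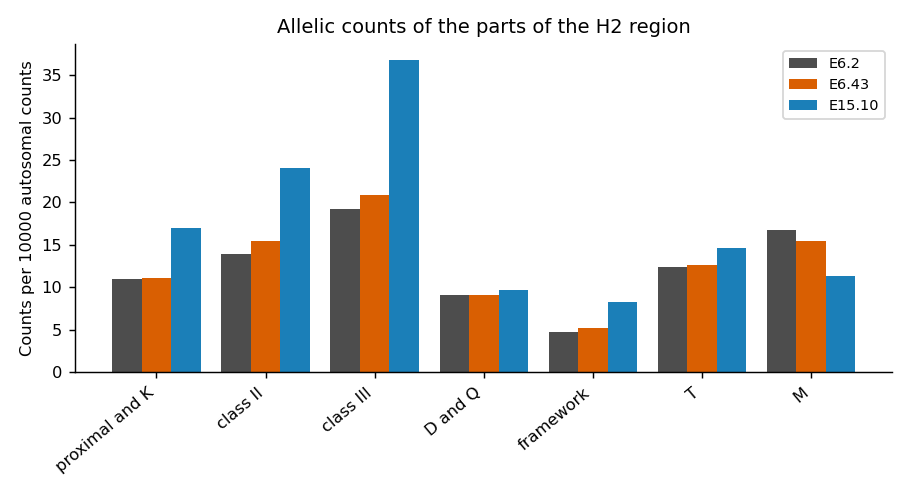
Allelic counts of each part of the H2 region per 10000 autosomal counts of the library, 1 bar per library, parts in chromosomal order. Among the 3 libraries, E15.10 has the highest bar in class III (36.8) and the lowest in M (11.3).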

How the data were processed

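Allele counts came from whole-exome DNA libraries of E6.2, E6.43 and E15.10, captured with the Agilent SureSelect Mouse All ExonV6 kit. The authors counted reads of each allele with the ASEReadCounter* pipeline and deposited, per gene, raw counts of both alleles, the number of SNPs (a value of another kind), and lists of SNP positions with their allele counts. The submitters' processing notes name cutadapt 1.14, Trim Galore, STAR 2.5.4a, SAMtools, GATK and GRCm38. Which settings were used for exome reads, and whether duplicate reads were removed, is not given in the sources used here. An alignment that favours the reference would raise AI, and reads of duplicated genes can be lost or placed at a copy. The deposited series table of genes with at least 90 counts gives the same counts, used as an alternative. Its other columns (the deposited AI fraction, interval limits, p-value and calls of a binomial test) were not used, and 0 columns belong to no library.

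Symbols and exons came from GENCODE release M21 (1 transcript per gene), in which 7 of the 252 genes were not found. Parts were bounded by H2-K1, H2-D1 and other anchor genes. Genes needed 10 counts and single SNPs 20. Intervals are 95% Wilson intervals. Fisher's exact test was two-sided and run on all autosomal genes (scipy 1.17.1) after a test on simulated data, and overdispersion was estimated from genes with at least 50 counts. Exon copies were sought with BLAST+ 2.17.0 over at least 80% of an exon. Genes named are the class I, II and III and antigen processing genes, the 3 genes with most SNPs of a part, genes in the imbalance range and the 5 largest differences per pair. Rab11b, Vps52, Gm10499 and other genes with AI over 0.6 or under 0.4 in all libraries are named for values seen. Members and lists were chosen with earlier results of these data known. Alternatives were other minimum counts and limits, SNPs at least 300 bp apart, shrunk counts and protein-coding genes only.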

Additional observations from a re-analysis of the deposited data

Results flagged for a closer look

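The AI of the pseudogene Skiv2l-ps1 (class III) differed between E6.43 and E15.10 by -0.431, with 0.345 from 110 counts in E6.43 and 0.777 from 130 counts in E15.10, and 0.508 from 197 counts in E6.2. This difference between libraries was the only 1 among 200 region genes that passed Fisher's exact test on counts shrunk for overdispersion (adjusted p = 0.0019). With SNPs at least 300 bp apart it did not pass Fisher's exact test (adjusted p = 0.16). It rests on 11 SNPs, of which 0 had 20 counts in both libraries, and on 1 library per animal. The closest copy of its exon 4 in the region, in Skiv2l, was 90.6% identical. The part of this copy in the difference was not tested.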

How the results depend on the processing

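Values are in the order E6.2, E6.43 and E15.10. The 2, 5 and 5 genes in the imbalance range became 9, 8 and 14 with limits of 0.3 and 0.7, 15, 15 and 11 with the median AI over SNPs, 7, 7 and 7 with SNPs at least 300 bp apart, 0, 2 and 2 among protein-coding genes, 2, 4 and 3 with 50 counts, 2, 4 and 3 with 90 counts and 2, 4 and 3 from the series table. AI of the region was 0.531, 0.533 and 0.53 as the median gene, 0.516, 0.512 and 0.518 from spaced SNPs, 0.532, 0.528 and 0.532 from SNPs with counts of each allele, and -0.00288, -0.00659 and -0.00236 after subtraction of the median autosomal gene. The share of SNPs outside 0.25 to 0.75 was 11.6, 13.6 and 12.2 percent with 10 counts and 6.59, 6.64 and 5.18 percent with 50. The counts of the median SNP relative to the median autosomal SNP, which had 1 count, were 37, 25 and 28. Relative to the rest of chromosome 17 they were 3.08, 3.57 and 4.67. Density was 3.92 SNPs per kb over the exons of all annotated genes. The 23, 39 and 29 genes that differed between E6.43 and E6.2, E15.10 and E6.2, and E6.43 and E15.10 became 0, 0 and 1 with shrunk counts. With spaced SNPs they became 0, 4 and 8 of 198, 199 and 198, against 146 of 21996, 1022 of 21508 and 1022 of 21417 over all genes. At an unadjusted p under 0.05 by Fisher's exact test, spaced SNPs gave 21, 27 and 25 region genes, with no share over all genes taken. With 50 counts they became 23, 37 and 28 of 182, 182 and 178, against 3008 of 20488, 3911 of 19208 and 3872 of 19038 over all genes. Keeping duplicates by position changed nothing, since there were 0. With 1 library per group, no replicate could be left out. The cause of these changes was not tested. No paired analysis was possible because each group holds 1 library and the groups share fewer than 2 replicate numbers. Depth limits single SNPs, since 1447, 1332 and 1361 of the 2479 had at least 20 counts.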
